A study of Mus musculus with 8 samples.

Results

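The enzymes that write and remove DNA methylation were examined for H3K27me3, the repressive histone mark laid down by Polycomb repressive complex 2 (PRC2), in mouse embryonic stem cells. The genes were Dnmt1, Dnmt3b and Dnmt3l of the DNA methyltransferase family and Tet1, Tet2 and Tet3 of the Tet family. They were matched by position: a deposited transcript interval was kept when 1 of these was its best-matching RefSeq gene and the shared span made up 0.5 or more of their union. All 6 genes were found, with 30 of the 50398 intervals: 5 for Dnmt1, 6 for Dnmt3b, 3 for Dnmt3l, 7 for Tet1, 3 for Tet2 and 6 for Tet3. The interval just outside this limit was a short Dnmt3l one (overlap 0.388, density 0.0896 as defined below), and the one just inside was also of Dnmt3l (0.640, density 0.118). Dnmt3a, the other de novo enzyme, was not analysed here. Each gene is represented by the interval that matched it best, from first to last exon with introns. On mm10 these were chr6:83362373-83457242 for Tet3 (minus strand), chr2:153649449-153687730 for Dnmt3b (plus) and chr10:78042287-78063622 for Dnmt3l (plus). The others were chr9:20907206-20959888 for Dnmt1, chr3:133463677-133545196 for Tet2 and chr10:62804570-62887570 for Tet1, all on the minus strand.

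The cells were of the line E14tg2a (129SV background), and every group carried a stable cRAF-ErT2 cassette, a RAF kinase fused to an oestrogen receptor domain so that 4-hydroxytamoxifen (4OHT) switches on ERK signalling. Clones A and B had LIF, serum and the GSK3 inhibitor Chir99021 (2 µM) until 24 h before treatment, when PD173074 (250 nM), which blocks FGF receptors, took the place of Chir99021. Untreated cells (0 h) and cells given 250 nM 4OHT for 2 h were fixed in 1% formaldehyde for 10 min before ChIP-seq. The 4 H3K27me3 libraries, 1 per clone and time, are described here, and the 4 input libraries were not analysed here. Both clones derive from 1 line, no vehicle control is named in the labels, and each library averages over all cells and alleles.

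DNA methylation of CpG sites is copied onto new strands by Dnmt1, the maintenance enzyme, and set on unmethylated DNA by the de novo enzymes, which Dnmt3l stimulates without being catalytic itself. The Tet dioxygenases oxidise the methyl group and so start its removal. In stem cells Tet1 and Tet2 are the main Tet enzymes and Dnmt3b and Dnmt3l rise as cells leave the naive state, while Tet3 is known for its role in the zygote and in neural cells. PRC2 is known to act at CpG-rich promoters of genes that stem cells keep silent.

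Sequences upstream of 2 annotated starts are shown because they lie at the edge of dense stretches described below and differ widely in CpG content: an inner start of Tet3, the densest gene, and the far upstream start of Dnmt1. Each run gives the 250 bases before a start, 5′ to 3′ on the gene's strand, from RefSeq (GRCm38.p6, of which mm10 is another name), with CpG sites in capitals. All 6 genes had a promoter window in that table, 10 windows in total. The Tet3 run (chr6:83441679-83441928, minus strand) lies inside the gene's longer transcripts, and whether it is exonic or intronic in them was not looked up here. The Dnmt1 run (chr9:20959889-20960138, minus strand) lies outside every Dnmt1 interval.
Tet3: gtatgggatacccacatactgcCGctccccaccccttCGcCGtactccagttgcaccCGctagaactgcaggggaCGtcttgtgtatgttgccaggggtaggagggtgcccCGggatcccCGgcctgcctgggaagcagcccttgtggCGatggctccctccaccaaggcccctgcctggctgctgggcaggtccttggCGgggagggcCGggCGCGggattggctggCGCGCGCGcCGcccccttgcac
Dnmt1: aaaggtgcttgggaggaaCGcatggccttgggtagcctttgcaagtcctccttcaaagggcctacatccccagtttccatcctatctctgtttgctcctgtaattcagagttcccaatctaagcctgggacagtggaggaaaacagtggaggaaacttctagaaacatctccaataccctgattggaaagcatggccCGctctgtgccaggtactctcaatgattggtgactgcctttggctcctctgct
The Tet3 run holds 17 CpG sites and the Dnmt1 run 2. Over the full window of 300 bases used for all genes (250 before and 50 after the start), Tet2 had 57 CpG sites, more than 99.8% of 32851 RefSeq windows, whose median was 7. Dnmt3b had 30, Tet3 22 at the inner start and Tet1 17. The outer starts of Tet3, where its densest stretch described below lies, had no window. Dnmt1 had 2, 12 and 33 at its 3 starts, from the farthest upstream to the nearest, and Dnmt3l 6, 4 and 3. The GC box, GGGCGG on either strand, was in 7 of the 10 windows and in 35.7% of all windows. These 10 windows, of which Dnmt1 and Dnmt3l each give 3, had a median GC of 62.2%, against 52.7% over all windows. What GC content adds to the share with a GC box was not tested. The letters CCGGAAG, the core bound by ETS factors, and TATAAA were searched on both strands and were in 0 of the 10 windows, against 8.86% and 13.6% of all windows. That says only that these letters are not there, and these motifs were picked after the data were seen.

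Tet3 alone of the 6 genes carried a high level of H3K27me3, and the other 5 lay below the median gene. Density here means counts divided by interval length in kb and by the library's column total in units of 1000000. The median over 20225 named genes was 0.357, and a gene at 4 times that value or more is called marked, as 5.78% of genes were. This limit was set with the data known. Tet3 measured 1.69 in clone A and 1.21 in clone B before treatment, and 1.75 (A) and 1.19 (B) at 2 h, a mean of 1.46 ± 0.299 (SD, n = 4 libraries). Its mean was 4.09 times the median gene, at percentile 94.4 of named genes. Tet3 thus lay just above the limit, with both clone A libraries above 4 times and both clone B libraries below it. At a limit of 2 times the median it was still the 1 member that passed, and at 8 times 0 members did.

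The de novo pair stood next. Dnmt3b measured 0.278 in clone A and 0.162 in clone B before treatment, and 0.302 (A) and 0.219 (B) at 2 h, a mean of 0.240 ± 0.0628 (SD, n = 4) or 0.673 times the median gene. Dnmt3l, the catalytically inactive partner, measured 0.201, 0.225, 0.219 and 0.206 in the same order, a mean of 0.213 ± 0.0112 or 0.596 times. The ranges of Dnmt3b and Dnmt3l overlapped, and Dnmt3b varied more between libraries, with its 2 lowest values both in clone B.

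Dnmt1, Tet2 and Tet1 were the sparsest. Dnmt1, the maintenance enzyme, measured 0.119, 0.0831, 0.112 and 0.0989 (0 h A, 0 h B, 2 h A, 2 h B), a mean of 0.103 ± 0.0157. Tet2 measured 0.0938, 0.0821, 0.0794 and 0.0945, a mean of 0.0874 ± 0.00779, and Tet1 0.0957, 0.0757, 0.0853 and 0.0848, a mean of 0.0854 ± 0.00816. The ranges of these 3 genes overlapped. Within each of the 4 libraries Dnmt1 was above Tet2 and Tet1, but only by its best interval, which includes the far upstream start. The other 4 Dnmt1 intervals, with means of 0.0692 to 0.0696, lay below Tet2 and Tet1 in each library. By best intervals, each value of these 3 genes was below every value of Dnmt3l and Dnmt3b. The 3 genes lay at percentiles 14.9 (Dnmt1), 8.65 (Tet2) and 7.78 (Tet1) of named genes. Tet2 combined the CpG-richest promoter window with a density of 0.245 times the median gene. As a check of the labelled cell type, 6 pluripotency genes ran from 0.230 (Tfcp2l1) to 3.07 times (Utf1) the median gene with 0 marked, and 6 of 6 lineage regulators from 8.12 (Pax6) to 15.4 times (Hoxd10). Of 3 fibroblast genes, which feeder cells would use, 1 was marked (Thy1, 6.05 times), and Col1a2 stood at 2.25 and Twist2 at 3.14 times.

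**Figure D1:**
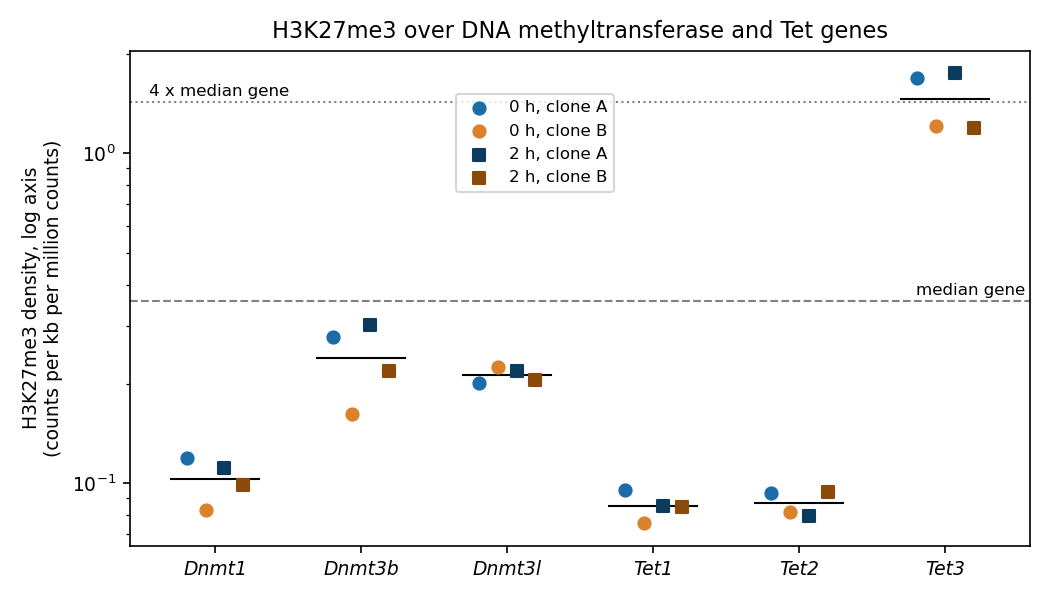
H3K27me3 density (log axis, counts per kb per 1000000 counts) of the best interval of each gene in each of the 4 libraries; bars are means, the dashed line is the median gene (0.357) and the dotted line 4 times it. Tet3 lies between 1.19 and 1.75 and all other genes lie below the median gene.

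Where intervals of a gene shared their 3′ end but began at different starts, the count of the shorter one was subtracted from that of the longer one, which places the counts along the gene. How reads that span a start were counted is not given in the sources used here, which matters most for the shortest stretches. Starts under 200 bp apart were merged, a choice made after the data were seen, and no test was run on these differences. In Dnmt1, Dnmt3b, Dnmt3l and Tet3 the counts were denser towards the 5′ end, and in Tet1 and Tet2 they were not. The 5′ part of Dnmt3b, 10.7 kb or 27.7% of the longest interval, held 69.4% (0 h) and 71.3% (2 h) of clone A's counts, against 60.9% and 58.5% of clone B's. Its density there was 0.600 ± 0.209 (SD, n = 4), 5.03 ± 1.37 times that of the remaining 27.9 kb. Within it, the first 0.284 kb (chr2:153649165-153649448), just upstream of the start whose window has 30 CpG sites, was the densest stretch. It had 41 (A) and 26 (B) counts before treatment and 66 (A) and 37 (B) at 2 h, a density of 1.81 ± 0.604 or 5.06 times the median gene. The body of Dnmt3b stood at 0.118 ± 0.0182, or 0.331 times.

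Dnmt1 had the same form at a lower level. The 6.91 kb between its far upstream start and the next one (chr9:20952980-20959888) had 195 (A) and 158 (B) counts before treatment and 229 (A) and 155 (B) at 2 h. Its density of 0.326 ± 0.0647 was 4.71 times that of the 44.7 kb body (0.0692 ± 0.0102) and 0.914 times the median gene. The 0.356 kb that follows, just upstream of the start with 33 CpG sites, had 2, 1, 3 and 0 counts (0 h A, 0 h B, 2 h A, 2 h B). The outer edge of the dense stretch is the end of the longest Dnmt1 interval, at the CpG-poor start printed above. Counts just beyond that edge were not examined, so where the mark begins was not measured.

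In Dnmt3l the first 7.55 kb (chr10:78042287-78049841) had 185, 279, 257 and 237 counts (0 h A, 0 h B, 2 h A, 2 h B) and a density of 0.385 ± 0.0474, 3.25 times its body. That stretch begins inside the oppositely oriented Aire, an autoimmune regulator, whose own interval stood at 0.367, and counting without strand cannot divide the reads they share. In Tet3 the 15.6 kb upstream of the shortest interval held 25.0% ± 0.793 of the counts in 16.4% of the length, at a density of 2.23 ± 0.496. Within that part the first 0.246 kb was the densest stretch, at 3.37 ± 0.741 or 9.44 times the median gene. The next 0.326 kb measured 2.63 ± 0.816, the following 0.460 kb 1.05 ± 0.333 and the last 14.5 kb 2.23 ± 0.496. The Tet3 body of 79.3 kb still measured 1.31 ± 0.262, or 3.66 times the median gene. The Tet3 sequence printed above is the end of the 5′ stretch, where it meets the body. Tet1 gave 0.0870 ± 0.0219 over its first 7.56 kb and 0.0852 ± 0.00798 over the rest. Tet2 had 3, 2, 7 and 3 counts in its first 0.794 kb, too few to set that density apart from its body (0.0877 ± 0.00799).

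**Figure D2:**
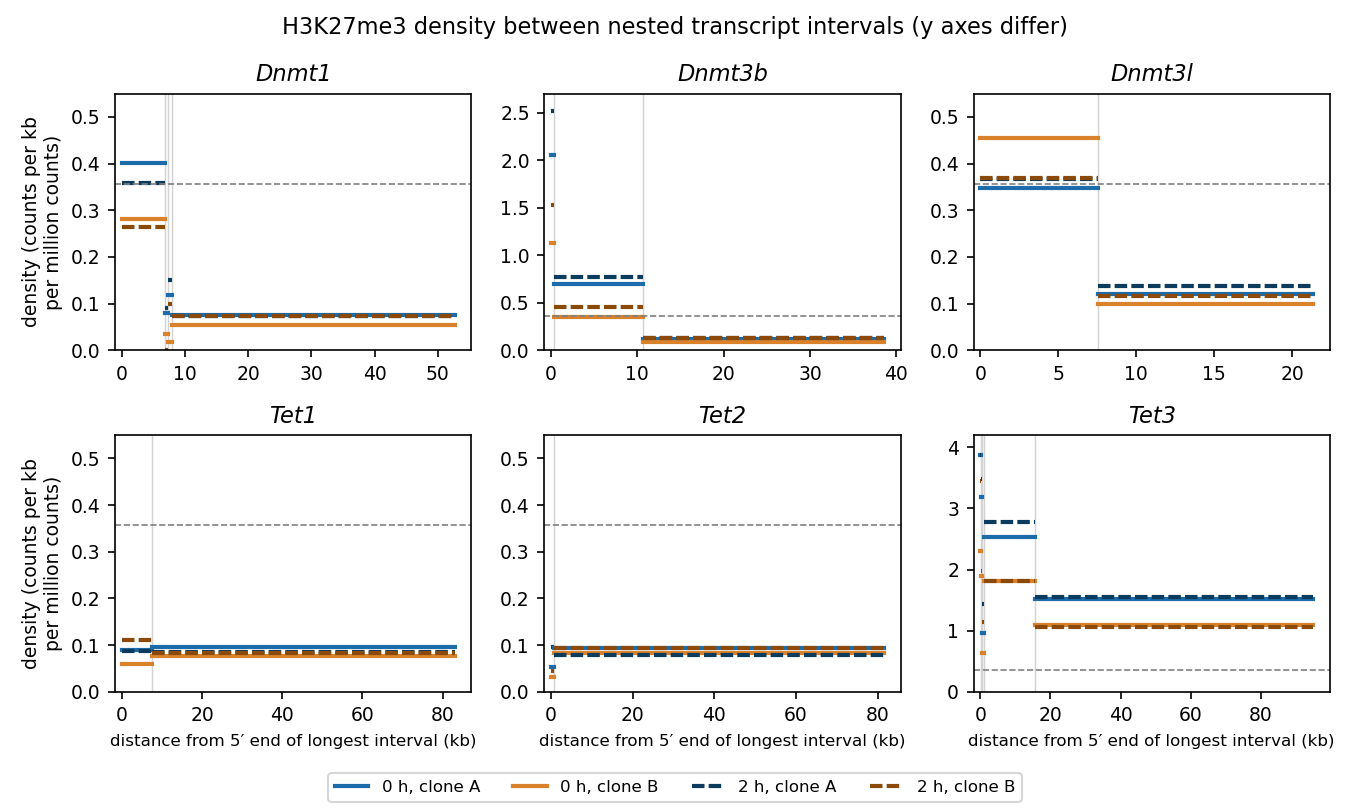
H3K27me3 density (counts per kb per 1000000 counts) against distance from the 5′ end of the longest interval (kb), from differences between nested intervals; 1 line per library, vertical lines mark alternative starts, the dashed line is the median gene, and y axes differ between panels. Density falls after the 5′ part in Dnmt1, Dnmt3b and Dnmt3l, remains above the median gene along Tet3 and is low throughout Tet1 and Tet2.

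Genes beside the members placed these levels in their surroundings. Tet3 stood out from both sides: Bola3, 3.97 kb downstream, measured 0.130 and Dguok, a mitochondrial deoxyguanosine kinase 23.0 kb upstream, 0.152, against 1.46 for Tet3. B230319C09Rik, a long noncoding RNA gene on the opposite strand inside the Tet3 interval, measured 2.15, 1.40, 2.36 and 1.39 (0 h A, 0 h B, 2 h A, 2 h B), and its span lies within that of Tet3. Upstream of Dnmt3b, 16.7 kb away, Commd7 was denser than Dnmt3b itself, at 1.33, 0.683, 1.41 and 0.622 in the same order, a mean 2.83 times the median gene. Mapre1, a microtubule-binding protein gene 53.6 kb downstream, measured 0.0942. The neighbours of Dnmt1 (S1pr2 at 0.121 and Eif3g at 0.0761) and of Tet1 (Slc25a16 at 0.107 and Ccar1 at 0.0867) were as sparse as the members. Pfkl, upstream of Dnmt3l, measured 0.0725 and Icosl, downstream, 0.175. Tet2 lay between Ppa2 (0.112) and the noncoding Gm40153 (0.544), at gaps of 85.4 kb and 101 kb.

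**Figure D3:**
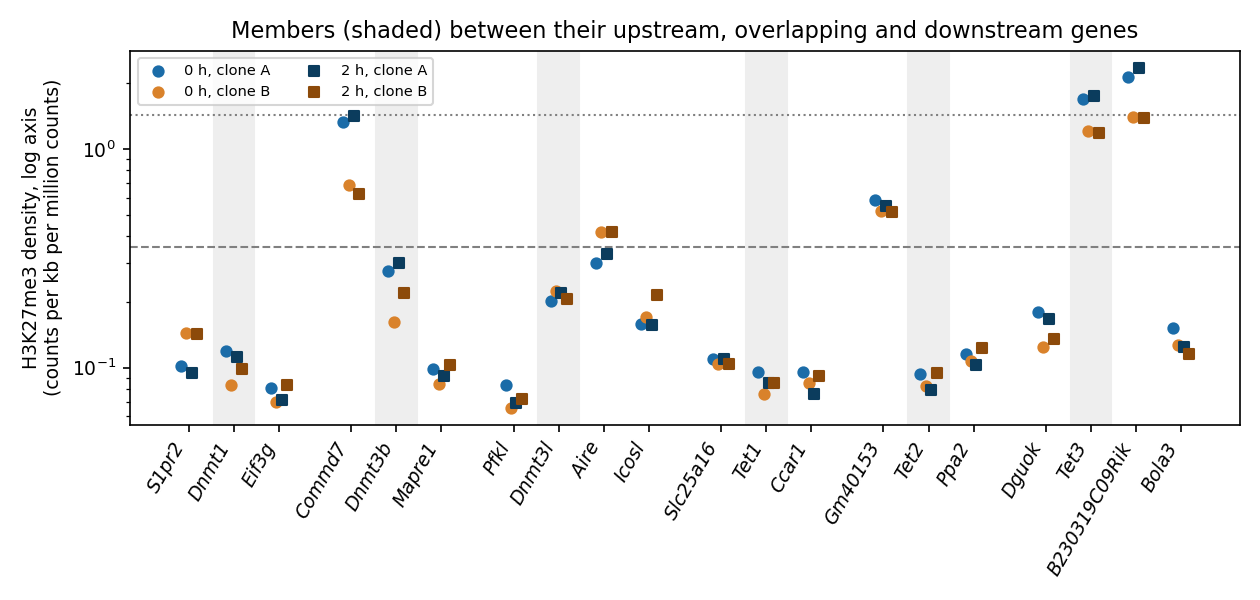
H3K27me3 density (log axis, counts per kb per 1000000 counts) of each member (shaded) and of the nearest named gene upstream, overlapping and downstream, 1 point per library; dashed and dotted lines are the median gene and 4 times it. Tet3 and the overlapping B230319C09Rik stand above Dguok and Bola3, and Commd7 stands above Dnmt3b.

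The study's main question, whether the mark changed within 2 h of RAF-ERK activation, gave 0 calls among these genes. edgeR called 0 of the 30 intervals higher and 0 lower at 2 h (adjusted p under 0.05), against 0% of all 50037 intervals tested. At an unadjusted p under 0.05 there were 0 of 30 by edgeR and 0 by DESeq2, with 188 and 2 over all intervals. With clone as a replicate block, 6 of 30 and 2078 of all had an unadjusted p under 0.05, and 0 were called. Those 6 are the overlapping intervals of Dnmt3b, so they stand for 1 gene. The median log2 change over the best interval of each gene was 0.01, as it was over all intervals. The untreated mean of Tet3 was 1.45 ± 0.338 and the 2 h mean 1.47 ± 0.393 (SD, n = 2), a log2 change of 0.02 with a 95% interval of −0.50 to 0.54. With the block, which takes the difference between clones out, that interval was −0.09 to 0.11. Changes were −0.01 for Dnmt3l and Tet1, −0.02 for Tet2 and 0.06 for Dnmt1, each with an interval across 0 in both fits.

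Dnmt3b, the one member higher at 2 h in both clones, had 749 and 503 counts at 0 h (A, B) and 1069 and 714 at 2 h. Its log2 change was 0.25 (SE 0.27), 0.14 in clone A and 0.41 in clone B, and its adjusted p by edgeR rounded to 1. With the replicate block the value was 0.26 (SE 0.08, 95% interval 0.10 to 0.42, unadjusted for the number of tests), and the adjusted p again rounded to 1. Before scaling, in clone B the body had 207 counts at 0 h and 312 at 2 h, and the 5′ part 322 and 439, with totals of 81279899 and 85062523. In clone A the body had 242 and 326 and the 5′ part 548 and 809, with totals of 70378127 and 92518605. As densities, the body measured 0.123 and 0.126 in clone A (0 h, 2 h), and 0.0913 and 0.132 in clone B. The 5′ part measured 0.729 and 0.819 (A), and 0.371 and 0.483 (B). The clone A body thus changed little, by a log2 value of 0.05, with a 95% interval from counting error of −0.19 to 0.30. Without the 0 h library of clone B the change was −0.10 and without the 2 h library of clone A −0.02. Clone was not in these 2 fits, so the difference between clones enters the change.

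The labels name the clones only by letter, and each was sampled once at each time, so a difference measures 2 libraries against 2 of the same line. Over all intervals, 27.5% passed the test, with 17.3% higher and 10.3% lower in clone A (edgeR, adjusted p under 0.05, 50037 tested). Among the members 9 of 30 intervals were called higher in clone A, those of 3 of the 6 genes, and 0 lower. DESeq2 gave an adjusted p to 28 of the 30 and called 9 higher and 0 lower, against 14.8% and 7.88% of all intervals it tested (22.7% in all). With time also in the fit the members' counts were again 9 and 0, against 16.9% and 9.91% (26.8% in all). With 1 interval per gene they were 3 and 0 of 6, against 15.9% and 10.6% (26.5% in all). The median log2 difference over the best interval of each gene was 0.27, against 0.00 over all intervals. Without the 2 h library of clone B, 17 of 30 were called higher in clone A, against 10.5% of all intervals in that fit.

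Tet3 was higher in clone A at both times, with no overlap in density: clone A had 11267 (0 h) and 15326 (2 h) counts, clone B 9327 and 9608. The log2 difference was 0.54 (SE 0.05, adjusted p = 3.16e-24 by edgeR), 0.48 at 0 h and 0.59 at 2 h. All 6 of its intervals were called, but they share 1 end and most of their length, so they are not separate results. The ratio of clone A to clone B was alike in the 5′ part (1.47) and the body (1.42). Of the 1170 marked genes 967 were higher in clone A, with a median of 0.19, so the direction was common among marked genes. B230319C09Rik inside Tet3 gave 0.71 (SE 0.07, adjusted p = 9.22e-21) and Dguok upstream 0.43 (SE 0.11, adjusted p = 0.000535), while Bola3 downstream gave 0.19 (SE 0.18) and was not called (edgeR). Mir6374, a microRNA gene inside Tet3, had 5 to 16 counts and gave 1.48 (SE 0.56, adjusted p = 0.0210 by edgeR).

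Dnmt3b was higher in clone A by 0.63 (SE 0.08, adjusted p = 1.20e-13 by edgeR), 0.78 at 0 h and 0.50 at 2 h. Its called intervals were the 2 that include the 5′ part. The other 4, which start beyond it, gave 0.15 to 0.18 and were not called. The 10.4 kb after its first 0.284 kb measured 0.693 (0 h) and 0.772 (2 h) in clone A, against 0.350 and 0.455 for clone B, a ratio of 1.82, whereas the body had a ratio of 1.12. Commd7, upstream of Dnmt3b, was higher in clone A by 1.09 (SE 0.07, adjusted p = 2.87e-55), and Mapre1 downstream gave 0.04 (SE 0.12). Genes of 0.8 to 1.25 times the density of Dnmt3b, a window set after the data were seen, had a median clone difference of 0.02 (1901 genes).

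Dnmt1 was higher in clone A by 0.36 (SE 0.10, adjusted p = 0.00150 by edgeR), 0.51 at 0 h and 0.22 at 2 h. Only the interval that includes the far upstream start was called, and the other 4 gave 0.23 to 0.26. Without the 0 h library of clone B the difference was 0.24 and was no longer called (adjusted p = 0.125 by edgeR); over all alternatives the adjusted p ran from 0.000912 to that value. Its upstream neighbour S1pr2, a sphingosine phosphate receptor, went the other way, −0.53 (SE 0.17, adjusted p = 0.0109). Tet1 gave 0.19 (SE 0.09, adjusted p = 0.0992), Tet2 −0.02 (95% interval −0.19 to 0.15) and Dnmt3l −0.01 (−0.21 to 0.19), and none of these was called. Aire, which overlaps the start of Dnmt3l, was lower in clone A by edgeR, at −0.37 (SE 0.10, adjusted p = 0.00121). Whether the clone difference varied along a gene was not tested.

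**Figure D4:**
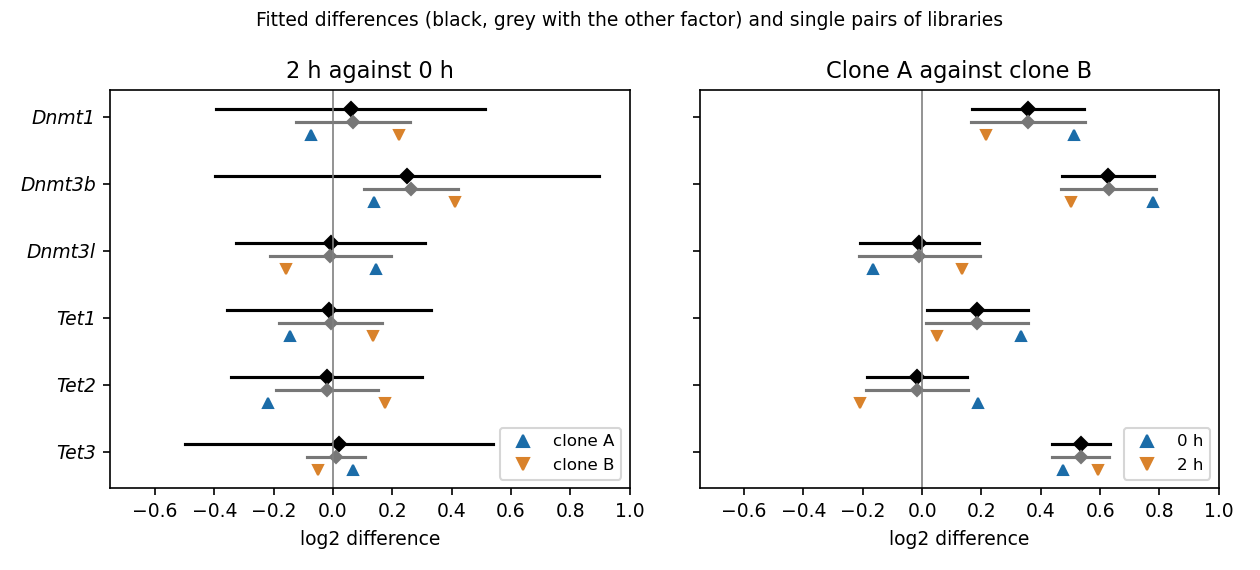
Log2 differences of each member's best interval for 2 h against 0 h (left) and clone A against clone B (right): black, edgeR fit with 95% interval; grey, the fit that also holds the other factor; triangles, single pairs of libraries. All time intervals of the black fits cross 0, and Dnmt3b, Tet3 and Dnmt1 lie above 0 in the clone panel.

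Other genes of DNA methylation were taken from a list of 43, of which 25 were in the table. Their median density was 0.310 times the median gene, and 1 was marked. This was Dppa3, a maternal factor that limits methylation, at 1.92, 2.01, 1.94 and 1.92 (0 h A, 0 h B, 2 h A, 2 h B), 5.45 times the median gene. Cxxc4, a CpG-binding partner of Tet2 that lies, like it, on chromosome 3, followed at 3.40 times. Gadd45b, a stress gene linked to demethylation, stood at 2.69 and Prdm14, a repressor of the de novo enzymes, at 1.57. Setdb1, a histone H3K9 methyltransferase, stood at 0.264 and Mbd5 at 0.681 times. The sparsest were Ogt, the Tet-binding sugar transferase, at 0.130 and the methyl-CpG reader Zbtb33 at 0.170 times. Both lie on the X chromosome, of which this male line has a single copy. What that adds to their low values was not tested.

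Over 2 h, 0 of these 25 genes were called in either direction, with a median log2 change of −0.02 (edgeR, 0 at an unadjusted p under 0.05 by edgeR and by DESeq2). Between the clones 4 were higher in clone A and 2 lower, with a median difference of −0.05. The higher ones were Setdb1 (0.45, SE 0.12), Prdm14 (0.24), Mbd5 (0.22) and Cxxc4 (0.19), and the lower ones were the methyl-CpG readers Zbtb38 (−0.36, SE 0.08) and Zbtb33 (−0.68, SE 0.27). Zbtb33, with 26 to 45 counts, was not called when time was also in the fit (adjusted p = 0.0551 by edgeR). DESeq2 gave 15 of the 25 an adjusted p and called 3 higher and 1 lower. The edgeR shares are near those of all intervals given above.

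**Figure D5:**
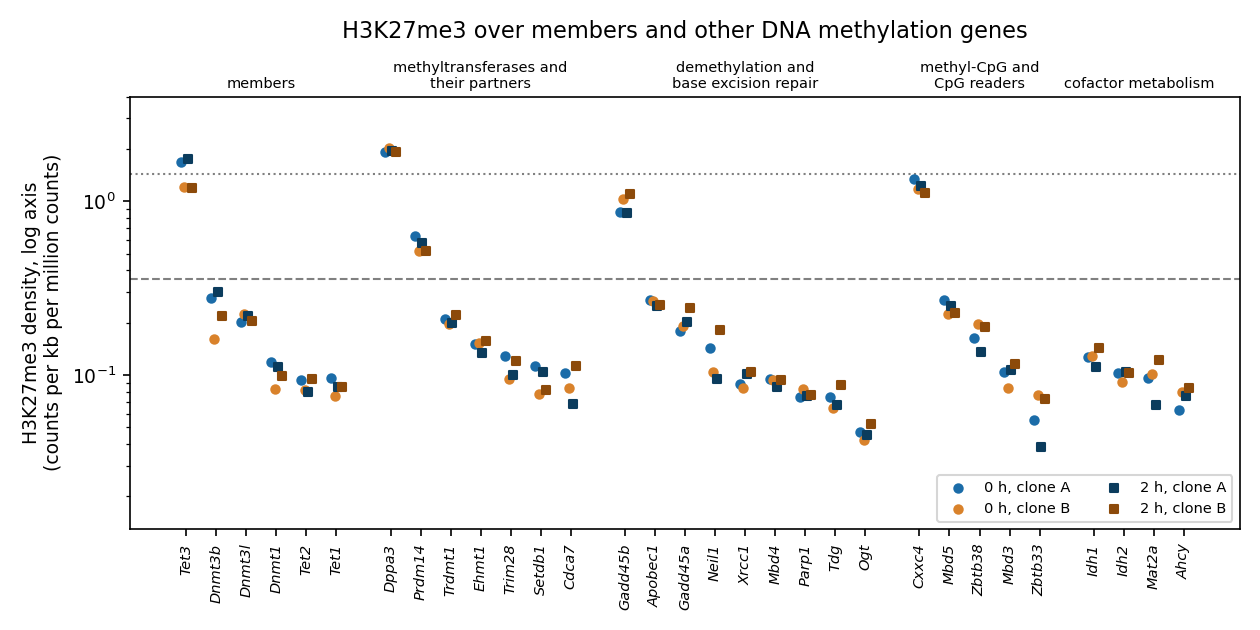
H3K27me3 density (log axis, counts per kb per 1000000 counts) of the members and of the other DNA methylation genes in the table, by role, 1 point per library; dashed and dotted lines are the median gene and 4 times it. Tet3 and Dppa3 are the 2 genes whose mean is above the dotted line.

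Genes of like pattern were found as those of similar length (0.67 to 1.5 times) with the smallest distance in log2 density (plus 0.01) over the 4 libraries. For Tet3 these were Elfn1 (distance 0.195) and Pax7 (0.406), for Dnmt3b Crtc1 (0.153) and Lexm (0.209) and for Dnmt1 Wdr62 (0.166) and Rufy2 (0.190). Dnmt3l was nearest to Sec22c (0.0856) and Gm6590 (0.113), Tet1 to Hdx (0.0885) and Eps15l1 (0.129) and Tet2 to Zfp292 (0.0371) and Herc4 (0.0671).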

How the data were processed

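H3K27me3 was measured by ChIP-seq in 4 libraries (0 h and 2 h, clones A and B). The values are raw read counts for each transcript interval from start to end, as deposited, per the file headers. Bowtie2, bedtools and mm10 were used per the submitters' processing notes; for their versions, and for any filter, the sources used here give nothing. The rows lie on chromosomes 1 to 10, X, Y and M. A further 12 per-library columns and 4 of group means were not used. Column totals were 70378127 to 92518605 counts; overlapping intervals count a read more than once, so these are not sequencing depths, and counts are of reads without molecular identifiers.

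Intervals were named by overlap with RefSeq genes (GRCm38.p6) at 0.5 of the union and 0.2 above the next gene, which gave 20225 genes, each with its best interval. Members, lists, the measure of density and its limit were chosen with earlier results of these data known. Tests were edgeR 4.0.16 quasi-likelihood fits across all intervals (TMM factors, filterByExpr, Benjamini-Hochberg over 50037 intervals). They were also run on simulated counts with 1 common dispersion and, for the time test, no clone difference. Those simulations do not show how the time test performs where clones differ, as they do here. SE and 95% intervals are of the fitted log2 difference. DESeq2 1.42.0, other factors and filters, blocks and leaving out each library were alternatives. The replicates are clones of 1 line, and p-values cover only how these libraries vary, which may be technical. Each clone has a library at either time by its label, and same-clone libraries deviated together (r = 0.514 across 50037 intervals, which are not independent). The text names all members, their nearest genes, marked or called pathway genes with the 4 densest and 2 sparsest, and the 2 most similar genes. Some genes of the pathway list are not reported here and were left out of its counts. R 4.3.3 and Python 3.11.15 were used.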

Additional observations from a re-analysis of the deposited data

Results flagged for a closer look

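In 5 of the 6 genes the 2 h value lay above the untreated one in 1 clone and below it in the other. The share of all named genes that did so was not counted, so this number does not set the members apart. A single library stands for each clone at each time, and the difference between clones was not tested. Log2 differences over 2 h are given for clone A, then clone B, with A minus B in brackets: Dnmt1 gave −0.07 and 0.22 (−0.29), Tet1 −0.15 and 0.14 (−0.28) and Tet2 −0.22 and 0.18 (−0.40). Genes of like density to these (0.8 to 1.25 times) had medians of −0.05 for clone A, and for clone B of 0.13 (Dnmt1), 0.16 (Tet1) and 0.15 (Tet2). Counting error alone gives 95% intervals of −0.39 to −0.05 (A) and 0.01 to 0.34 (B) for Tet2. For Tet1 they are −0.31 to 0.02 and −0.04 to 0.31, across 0 in each clone, and for Dnmt1 −0.26 to 0.11 and 0.02 to 0.43. Dnmt3l gave 0.14 and −0.16 (0.30), with intervals from counting error that cross 0 in each clone, where genes of like density had medians of −0.03 and 0.00. Tet3 gave 0.07 and −0.05 (0.12), where genes of like density had medians of 0.08 and −0.01.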

How the results depend on the processing

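Calls of the members over time were 0 higher and 0 lower under every alternative that was run, among them DESeq2, other factors and filters, 1 interval per gene, and clone as a replicate block (Dnmt3b 0.26, Tet3 0.01; 0 calls). Leaving out 1 library at a time moved the log2 change over time between −0.18 and 0.34 for Dnmt1, −0.10 and 0.69 for Dnmt3b, −0.087 and 0.073 for Dnmt3l, −0.18 and 0.16 for Tet1, −0.15 and 0.080 for Tet2 and −0.31 and 0.28 for Tet3. Each such fit leaves 1 time with 1 clone, whose lone library is assumed to vary like the others. Clone was not in these fits, so a difference between clones enters the change over time. The clone difference ran from −0.11 to 0.063 for Dnmt3l, −0.12 to 0.095 for Tet2, for Tet1 from 0.11 to 0.26, for Dnmt3b from 0.43 to 0.82, for Dnmt1 from 0.24 to 0.45 and for Tet3 from 0.48 to 0.57. The members' intervals called higher in clone A ran from 8 (12.1% of all intervals in that fit) to 17 (10.5%). They were 15 at an adjusted p under 0.1, where Tet1 also passed, against 19.6% of all. With 1 interval per gene, where 6 intervals of members remain, 3 were called, also with time in the fit, an alternative chosen after seeing the data. As a median over all isoform intervals, density was 0.0695 for Dnmt1, 0.118 for Dnmt3b and 0.118 for Dnmt3l, since most of their intervals leave out the 5′ part. An overlap of 0.8 kept 22 intervals and all 6 genes. Counts of 302 to 655 per library limit what can be seen at Dnmt1, Dnmt3l, Tet1 and Tet2.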
